A study of Mus musculus with 6 samples.

Results

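The 10 genes described here serve MHC class II antigen presentation: the class II chain genes H2-Aa, H2-Ab1 and H2-Eb1, the invariant chain Cd74, the transactivator Ciita, the peptide-editing genes H2-DMa and H2-DMb1, their inhibitors H2-Oa and H2-Ob, and the protease gene Ctss. They were chosen by symbol, and each symbol matched 1 of the 47729 rows of the deposited count table. RNA was sequenced from mouse left ventricular myocardium at day 9 after TAC, transverse aortic constriction, in which a tightened aortic arch overloads the heart. The 3 Treg libraries come from operated mice in a group that, by the series title, received regulatory T cells induced in culture and deprived of CD28, given systemically. The 3 control libraries come from operated mice whose treatment the labels do not state further. The labels used here give no strain, age or sex, and no unoperated heart was analysed here, so all values compare operated hearts with each other.

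Class II molecules are pairs of an alpha and a beta chain that carry peptides from endosomes to the cell surface, where CD4+ T cells, regulatory T cells among them, read them. Newly made pairs are held by the invariant chain, which proteases cut away in the endosome; H2-DM then exchanges the remaining fragment for other peptides, and H2-O restrains H2-DM. In most cells the transactivator CIITA sets whether the chain, invariant chain and H2-DM genes are transcribed. In the heart class II is carried mainly by dendritic cells, B cells and a share of the macrophages and monocytes.

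The promoters of these genes are shown first because CIITA binds no DNA itself and acts through factors bound to short boxes that the class II genes share. The table of RefSeq promoters (GRCm38.p6, 250 bases before to 50 after the gene start) held 7 of the 10 members, H2-DMa with 2 entries; H2-Ab1, Cd74 and Ciita had no entry. The sequences are those of the reference genome. The labels used here give no strain, so the sequences of these mice may differ. In the stretches below, each 80 bases long and read 5′ to 3′ on the gene's strand, capitals mark GATTGG, the core of the Y box bound by the NF-Y complex, on either strand, and a form of the X1 box, which the RFX complex binds (AGNNAC, then any base and GATG, also on either strand).
H2-Aa: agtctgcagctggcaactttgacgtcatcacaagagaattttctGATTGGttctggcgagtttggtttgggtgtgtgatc
H2-Eb1: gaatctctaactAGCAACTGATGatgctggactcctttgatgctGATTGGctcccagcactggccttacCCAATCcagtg
H2-DMb1: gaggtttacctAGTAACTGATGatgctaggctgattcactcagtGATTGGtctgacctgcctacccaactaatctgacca
H2-Oa: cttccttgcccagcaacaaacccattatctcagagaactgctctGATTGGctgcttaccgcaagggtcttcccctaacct
H2-Ob: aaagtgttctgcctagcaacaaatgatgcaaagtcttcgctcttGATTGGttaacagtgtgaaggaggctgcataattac

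The stretches lie at chr17:34287837-34287916 on the minus strand for H2-Aa, and on the plus strand at chr17:34305763-34305842 for H2-Eb1, chr17:34153085-34153164 for H2-DMb1, chr17:34092291-34092370 for H2-Oa and chr17:34238803-34238882 for H2-Ob. The first capital of GATTGG stood between 62 bases before the RefSeq start (H2-DMb1) and 44 bases before it (H2-Oa). The gene spans given further below are from GENCODE and can start at other positions. GATTGG was found in 16.1% of all 32851 RefSeq promoters of 300 bases and this X1 form in 0.968%. In H2-Eb1 21 bases and in H2-DMb1 22 bases separated the X1 match from GATTGG. Only 4 of the 32851 promoters held the X1 form followed by GATTGG on the gene's strand within 60 bases: H2-Eb1, H2-DMb1, the further class II gene H2-Eb2 and Scgb2b20, a secretoglobin. The H2-Aa and H2-Ob windows held no such X1 match, and H2-Oa held 1 that lay 86 bases from its GATTGG. The Ctss window held neither motif, and of the H2-DMa entries 1 held neither and the other held GATTGG 199 bases before its start.

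Depth was even, with library totals between 28937253 and 29979080 estimated counts. The ventricular markers Myh6, Myl2, Myl3, Tnnt2, Actc1 and Ryr2 were high in every library. Treg replicate 3 also held more atrial transcripts: the summed level of 4 atrial markers was 119 CPM there, against 2.92 and 3.10 CPM in the other Treg libraries and 2.83 to 4.84 CPM in control. CPM are counts scaled to library size, with sizes adjusted by the trimmed mean of M values (TMM). Control replicate 3 stood apart over all genes: a chi-square of counts per degree of freedom was 85.8 to 137 for its pairs with other libraries and 17.7 to 81.2 for all other pairs. Results are therefore given with all libraries, without control replicate 3, and without replicate 3 of both groups. No label states that the libraries are from separate mice, so each p-value is set against the spread between libraries, which may be technical.

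The class II chains had higher levels in all 3 Treg libraries than in any control library, and the fitted log2 fold changes between the groups were about 2. Single libraries lay closer than that. The lowest Treg and the highest control library had 16.1 and 9.02 CPM for H2-Aa, 12.9 and 6.81 CPM for H2-Ab1, and 12.6 and 6.46 CPM for H2-Eb1. The control libraries also differed widely among themselves, and no chain passed edgeR's threshold. H2-Aa, the alpha chain of the A molecule (chr17:34282744-34287823, minus strand, GENCODE M21 on GRCm38), had 571, 445.5 and 908 estimated counts in Treg replicates 1 to 3, against 257, 118 and 28 in control replicates 1 to 3. The highest Treg library was 1.77 times the lowest, while the highest control library was 9.57 times the lowest. In whole tissue, fewer cells of a type and less RNA per cell cannot be told apart. Means were 21.1 ± 6.53 CPM in Treg and 4.62 ± 4.09 CPM in control (SD, n = 3 each, as throughout). The log2 fold change of Treg over control was 2.2 ± 0.66 (SE), with an adjusted p of 0.218 by edgeR's quasi-likelihood test with Benjamini-Hochberg adjustment over 17365 genes.

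H2-Ab1, the beta chain of the same molecule (chr17:34257689-34269419, plus strand), had 400, 356.5 and 673 counts in Treg, against 194, 84 and 53 counts in control. It had the narrowest control spread of the chains, 3.82 times between highest and lowest. Its means were 15.7 ± 4.68 CPM in Treg and 3.79 ± 2.66 CPM in control. The log2 fold change was 2.06 ± 0.48 (edgeR adjusted p = 0.159). H2-Ab1 was the only member called by any alternative test: DESeq2 gave an adjusted p of 0.000971, while leaving out each library in turn gave edgeR adjusted p values between 0.0655 and 0.53.

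H2-Eb1, the beta chain of the E molecule (chr17:34305867-34316674, plus strand), had 412, 350 and 718 counts in Treg, against 184, 96 and 14 in control. The means were 16.3 ± 5.47 CPM in Treg and 3.37 ± 3.00 CPM in control, a log2 fold change of 2.27 ± 0.72 (edgeR adjusted p = 0.229). The chains kept nearly fixed proportions in 5 of the libraries. H2-Eb1 stood at 0.98 to 1.07 times the CPM of H2-Ab1 in the Treg libraries and at 0.948 and 1.14 times in control replicates 1 and 2. In control replicate 3 this ratio was 0.264, and the ratio of H2-Aa to H2-Ab1 was 0.528 there, against 1.25 to 1.43 in Treg and 1.32 and 1.40 in the other controls. These ratios of CPM are not corrected for gene length and compare libraries, not genes. H2-Ab1 thus had the highest level of the chains in that library relative to its own level elsewhere.

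The partner of H2-Eb1, the E alpha chain, is annotated as the polymorphic pseudogene H2-Ea-ps (chr17:34341959-34344645, minus strand) because a deletion silences it in C57BL/6 mice, the strain of the reference genome, while some other haplotypes transcribe it. It had 479, 443 and 757.5 counts in Treg, against 197, 99 and 15 in control. The ratio of its CPM to that of H2-Eb1 was 1.06 to 1.27 in Treg and 1.03 to 1.07 in control, the narrowest range over the 6 libraries of the ratios between these genes. E alpha transcripts were thus counted in every library. The log2 fold change was 2.38 ± 0.71 (edgeR adjusted p = 0.215). The labels used here give no haplotype, and its part in the counts of the chains was not tested.

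**Figure D1:**
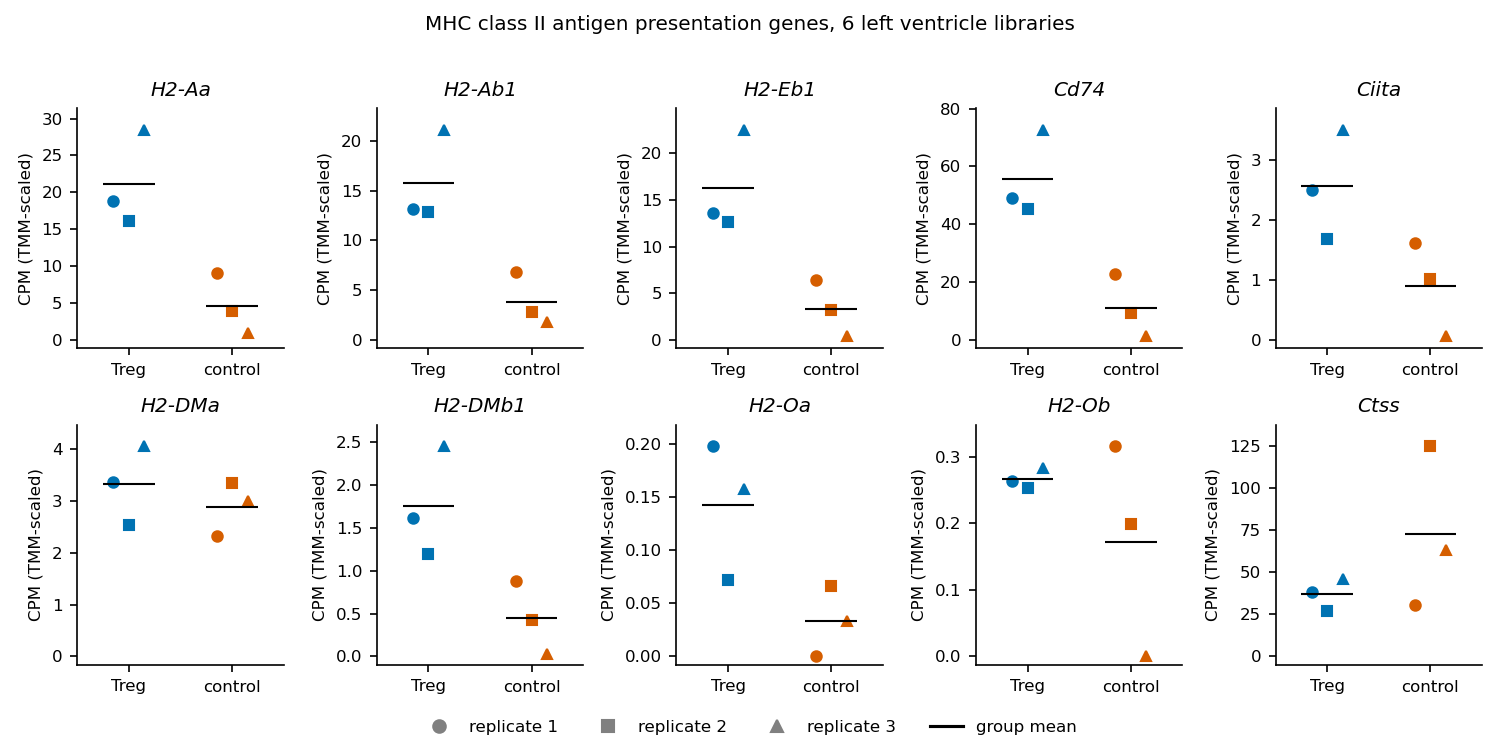
Level of each of the 10 members in CPM on TMM-scaled library sizes (y axes start near 0 and differ between genes), with Treg left and control right; symbols are replicates 1 to 3 and the line is the group mean. The chains, Cd74, Ciita and H2-DMb1 lie higher in every Treg library than in any control library, while H2-DMa, H2-Ob and Ctss overlap.

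Cd74, the invariant chain that escorts new class II pairs (chromosome 18, 60803848 to 60812652, plus strand), had 1494, 1256 and 2316.5 counts in Treg, against 652.5, 278.5 and 45.5 in control. The means were 55.8 ± 14.8 CPM in Treg and 11.2 ± 10.8 CPM in control, a log2 fold change of 2.31 ± 0.76 (edgeR adjusted p = 0.237). Per kilobase of exon, Cd74 averaged 33.2 CPM in Treg and 6.69 CPM in control, and the 3 chains averaged 5.57 to 8.36 CPM in Treg and 1.22 to 1.73 CPM in control. The length used joins all annotated exons of a gene, 1679 bases for Cd74 and 1944 to 3798 for the chains. It can exceed the length of the transcripts present, so the size of this difference between genes is uncertain. The ratio of Cd74 to the summed CPM of the chains was 1.01 to 1.09 in Treg, against 1.03, 0.936 and 0.484 in control replicates 1 to 3, so the ratio was lowest in control replicate 3.

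Ciita, the transactivator (chr16:10480059-10528418, plus strand), had 75.5, 46.5 and 112.25 counts in Treg, against 46.06, 31 and 2 in control. The groups barely separated, at 1.69 CPM in the lowest Treg library and 1.61 CPM in the highest control library. Means were 2.57 ± 0.91 CPM in Treg and 0.90 ± 0.78 CPM in control, and the log2 fold change was 1.51 ± 0.75 (edgeR adjusted p = 0.355). Without control replicate 3 it was 0.97 and without replicate 3 of both groups 0.66. Ciita shares 329 exon bases with Dexi on the opposite strand, which had 512.5 to 676.5 counts in Treg and 417 to 503.5 in control.

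The genes of the peptide editor H2-DM had unlike patterns over the libraries. H2-DMb1, its beta chain (chr17:34153072-34160230, plus strand), had 49.25, 32.75 and 77.5 counts in Treg, against 25.25, 13.25 and 1 in control. The log2 fold change was 1.97 ± 0.72 (edgeR adjusted p = 0.264). H2-DMb2, a further beta chain gene, had 47.75, 38.25 and 74.5 counts in Treg, against 41.25, 29.75 and 5 in control, and the groups overlapped. Its log2 fold change was 1.03 ± 0.61 (edgeR adjusted p = 0.422). Of the 50-base words in H2-DMb1 transcripts, 22.7% also occur in H2-DMb2 transcripts, so counts of this pair are uncertain.

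H2-DMa, the alpha chain of the same editor (chr17:34119541-34139101, plus strand), overlapped between the groups, with 102, 70 and 129 counts in Treg and 66, 101 and 89 in control. Its log2 fold change was 0.20 ± 0.25 (edgeR adjusted p = 0.697). Relative to the summed CPM of H2-DMb1 and H2-DMb2, H2-DMa stood at 0.843 to 1.05 in Treg and at 1.00, 2.35 and 14.8 in control replicates 1 to 3. H2-DMa shares 360 exon bases with Brd2, a chromatin reader gene on the opposite strand, which had 2617.5, 2224.25 and 3284.6 counts in Treg and 2671.33, 2517.5 and 4207 in control. The sources used here do not say whether counting used strand. Of 12 genes that lie wholly inside exons of an abundant gene on the other strand, the median level per base was 0.681 of the host's. The range was 0.0119 to 1.59, near the host's level in some pairs and far below it in others. How well such pairs were kept apart is thus uncertain. The part of Brd2 reads in H2-DMa was not tested.

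The inhibitor genes were near the limit of detection. H2-Oa (chr17:34092340-34095234) had 6, 2 and 4.5 counts in Treg, against 0, 1.5 and 0.5 in control. H2-Ob (chr17:34238903-34254414) had 8, 7 and 9 counts in Treg, against 9, 6 and 0 in control. A count of 0 allows a level of up to 0.105 CPM (3 counts) in control replicate 1 and 0.101 CPM in control replicate 3. Both genes fell under the filter on low counts and were not tested.

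Ctss, cathepsin S, the protease that trims the invariant chain in antigen-presenting cells (chr3:95526786-95556403, plus strand), had another pattern. It had 1163, 751.5 and 1468.25 counts in Treg, against 870, 3785.25 and 1885 in control, and the groups overlapped. The log2 fold change was −0.97 ± 0.47 (edgeR adjusted p = 0.342), and −0.33 without control replicate 2. Control replicate 2 was also high for the macrophage genes Lyz2, a lysozyme, at 644 CPM, where the Treg libraries had 151 to 265 CPM and the other controls 186 and 218 CPM, and Cd68, a lysosomal protein, at 36.4 CPM, where the Treg libraries had 10.7 to 15.7 CPM and the other controls 9.12 and 24.4 CPM. These genes were picked after their values were seen: control replicate 2 was the highest library for 3 of the 10 macrophage markers (Lyz2, Cd68 and Adgre1), Treg replicate 3 for 5 and control replicate 3 for 2. Ctss over the summed macrophage markers was 0.068, 0.068 and 0.077 in Treg, against 0.077, 0.126 and 0.127 in control. By this ratio every Treg library lay below every control library, the closest pair at 0.0768 and 0.077.

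**Figure D2:**
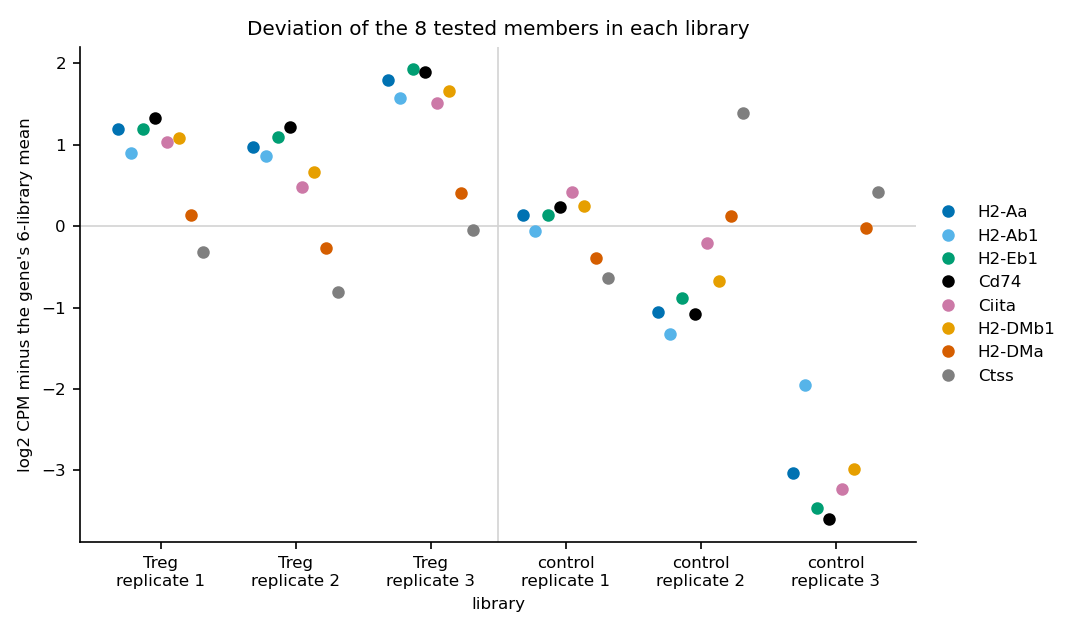
Log2 CPM of the 8 tested members in each library, as the difference from each gene's own 6-library mean. H2-Aa, H2-Ab1, H2-Eb1, Cd74, Ciita and H2-DMb1 lie together in each Treg library and are lowest in control replicate 3 (−1.95 for H2-Ab1 to −3.60 for Cd74), where H2-DMa (−0.02) and Ctss (0.41) are not low.

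Of the 10 members 8 passed the filter, and 0 had an adjusted p under 0.05 by edgeR, as did 0 of all 17365 genes tested (0%). At an unadjusted p under 0.05, 5 of the 8 were higher in Treg (H2-Aa, H2-Ab1, H2-Eb1, Cd74 and H2-DMb1) and 0 lower, where 8.23% of all genes tested were higher and 8.31% lower (2873 genes, 16.5%). DESeq2 called 1 of the 8, H2-Ab1, where it called 1.93% of all genes with an adjusted p as higher and 3.9% in either direction, and limma-voom called 0. A log2 fold change of at least 1 was found for 6 of the 8 and for 2.89% of all genes tested. At an adjusted p under 0.1 edgeR called 0 of the 8 and 0.472% of all genes. Every Treg library lay above every control library in 6 of the 8, where this held for 13.7% of all genes tested. The median log2 fold change was 2.01 over the 8 tested members and −0.02 over all genes tested. The filter keeps genes that reach the count limit in either group, so these numbers describe the members that passed it.

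Each of the 6 separated genes kept its direction when any library was left out. Without control replicate 3 the log2 fold changes of H2-Aa, H2-Ab1, H2-Eb1 and Cd74 were 1.71, 1.72, 1.76 and 1.80, and H2-DMb1 had 1.43 (edgeR adjusted p between 0.108 and 0.144 for these genes). With that library out edgeR called 230 of all genes (1.3%) and 0 members. Without replicate 3 of both groups, which also removes the library with the most atrial transcripts and the highest class II level, the chains had 1.43 to 1.44, Cd74 1.55 and H2-DMb1 1.09 (edgeR adjusted p between 0.118 and 0.283), with 119 of all genes (0.684%) and 0 members called. Without control replicate 1 the fold changes were larger, at 3.13, 2.79, 3.15 and 3.37 for H2-Aa, H2-Ab1, H2-Eb1 and Cd74. Control replicate 1 lay nearest to the Treg libraries for every one of these genes.

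**Figure D3:**
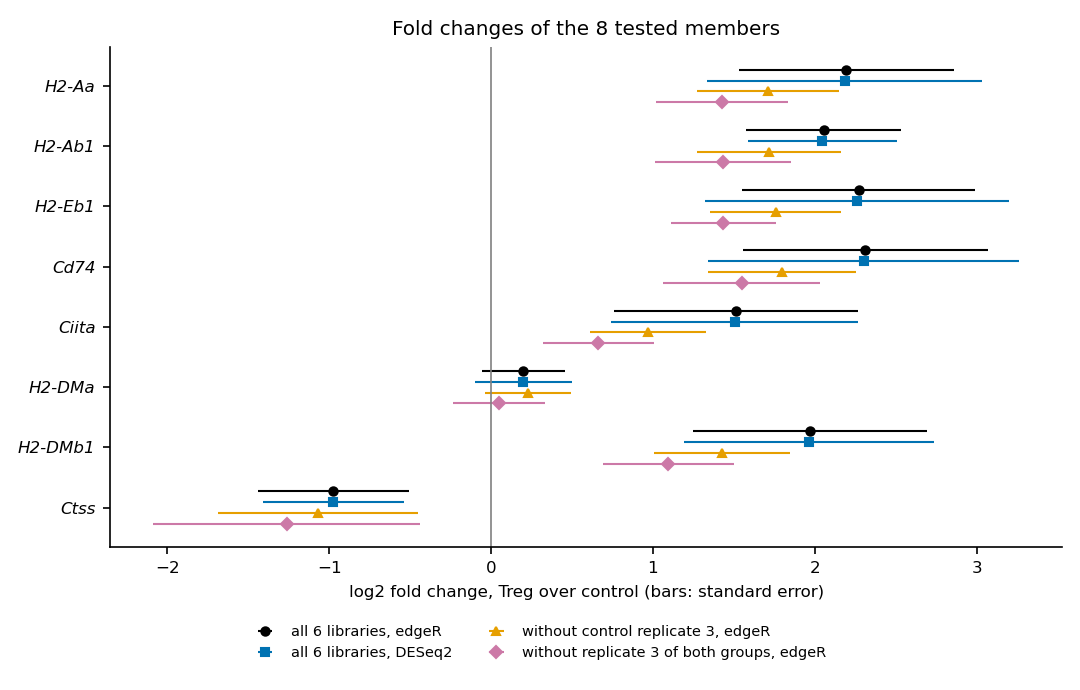
Log2 fold change of Treg over control with its standard error for the 8 tested members, by edgeR with all 6 libraries, by DESeq2, by edgeR without control replicate 3 and by edgeR without replicate 3 of both groups. The chains, Cd74 and H2-DMb1 stay above 1 throughout, H2-DMa lies near 0 (0.05 to 0.23) and Ctss lies below 0 (−0.97 to −1.26).

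The class II chains were also set against markers of the cells that carry them. The summed level of 10 macrophage markers overlapped between the groups, at 399 to 601 CPM in Treg and 396 to 993 CPM in control, and 0 of the 10 passed edgeR's threshold or an unadjusted p under 0.05. Log2 fold changes were above 0 for 6 of the 10, the defining genes Csf1r, the CSF1 receptor (0.24), C1qa, a complement subunit (0.17), and Adgre1, the F4/80 antigen (0.41), among them. They were below 0 for 4, Mertk (−0.59), Lyz2 (−0.63), Cd68 (−0.78) and Itgam (−0.87). Lyz2 alone made up 37.8% to 47.2% of the sum in Treg and 43.8% to 64.9% in control. Relative to these markers, the summed CPM of the 3 chains was 0.081, 0.104 and 0.120 in Treg, against 0.056, 0.010 and 0.006 in control, so the separation of the groups remained on this scale. The mean difference of the log2 ratio was 2.72 with all libraries and 1.96 without replicate 3 of both groups. With Lyz2 left out of the markers, an alternative chosen after seeing the data, it was 2.44 and the groups still did not overlap.

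Dendritic cell markers differed from gene to gene. The summed level of 12 markers was 51.5 to 66.9 CPM in Treg and 49.8 to 77.5 CPM in control. Fscn1 and Zbtb46, which other cells also express, made up 77.7% to 81.8% of it in Treg and 65.4% to 86.8% in control, so the sum mainly follows these genes. Of the 12 markers 9 were tested, with log2 fold changes above 0 for 6 and below 0 for 3, Clec10a (−0.88) among the latter. At an unadjusted p under 0.05, 2 were higher, Flt3 and Cd209a, where 8.23% of all genes tested were higher. DESeq2 called 1 as higher, Cd209a (adjusted p = 0.0431), where it called 1.93% of all genes with an adjusted p. Flt3, a growth factor receptor of dendritic cells, had 17, 17 and 31 counts in Treg, against 10, 1 and 3 in control, and Cd209a, a dendritic cell lectin, had 26.5, 29 and 39 counts in Treg, against 11, 3 and 0 in control. Their edgeR adjusted p values were 0.215 and 0.198 (Flt3 and Cd209a in that order), and in both every Treg library lay above every control library. This held for 2 of the 9 and for 13.7% of all genes tested. Zbtb46, a transcription factor of classical dendritic cells that endothelial cells also express, had a log2 fold change of 0.32 (edgeR adjusted p = 0.387). Itgax, the integrin CD11c, had 103.5, 34.25 and 91 counts in Treg, against 19.75, 612 and 16.75 in control. The part of dendritic cells in the class II levels was not tested.

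B cell markers as a sum were low in control replicate 3 as well. The summed level of 12 markers was 17.6 to 25.1 CPM in Treg, against 25.0, 22.7 and 3.64 CPM in control replicates 1 to 3. In that library Ms4a1, the defining B cell gene for CD20, was at 0 counts and Cd79a, a B cell receptor subunit, at 1. In the other libraries Ms4a1 had 4 to 7 counts in Treg and 14 and 6 in control, and Cd79a had 9.5 to 19.5 in Treg and 18 and 11 in control. Blk, a B cell kinase, made up 39.9% to 48.8% of the sum in Treg and 58.5% to 77.8% in control, so the sum mainly follows Blk in control. Ighm, the immunoglobulin mu chain, had 301.83, 196.5 and 248.17 counts in Treg, against 134, 110 and 11.5 in control. It was the only 1 of the 8 tested B cell markers with every Treg library above every control library. This separation held for 13.7% of all genes tested. The log2 fold change of Ighm was 1.51 ± 0.67 (edgeR adjusted p = 0.314). Over the 8 tested markers log2 fold changes were above 0 for 4 and below 0 for 4, Blk (−0.27) among the latter. The part of B cells in the class II levels was not tested.

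Most T cell markers, several of which regulatory T cells also carry, were near the limit of detection. Cd3d, a subunit of the T cell receptor complex, had 2, 0 and 0 counts in Treg and 2, 1 and 3 in control, and Trac, the receptor's alpha constant region, 6.5, 6.5 and 13 in Treg and 5, 3.5 and 0 in control. Foxp3, the regulatory T cell factor, had 51.3, 41.5 and 55.9 counts in Treg and 48, 42.8 and 51.2 in control (log2 fold change 0.04, edgeR adjusted p = 0.939). These counts exceeded those of Cd3d and Trac in every library, and whether they come from regulatory T cells was not tested. Of the 9 markers 3 were tested: Foxp3, Cd4 and Cd3e. Cd4, a co-receptor that some macrophages also express, had 13, 9 and 27 counts in Treg and 4, 10 and 7 in control, with an unadjusted p under 0.05 (log2 fold change 1.17 ± 0.49, edgeR adjusted p = 0.298). Cd3g, a further subunit of the complex, had 11, 9 and 3 counts in Treg and 3, 0 and 0 in control. Cd3e, another subunit, had the opposite order, at 12, 16 and 15 counts in Treg and 81.5, 36 and 465 in control (edgeR adjusted p = 0.177, while DESeq2 called it lower with an adjusted p of 0.000175). The summed level of 9 T cell markers was 3.53 to 4.43 CPM in Treg and 3.34 to 18.2 CPM in control. In control replicate 3, the library with 18.2 CPM, Cd3e alone stood at 15.7 CPM, so the top of this range mainly follows Cd3e.

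Monocyte markers summed to 154 to 187 CPM in Treg and 212 to 234 CPM in control, but Ace, which endothelial cells also express, made up 83.6% to 85% of the sum in Treg and 66.7% to 90.5% in control. Ccr2, a chemokine receptor of classical monocytes, overlapped between the groups and had a log2 fold change of 0.53 (edgeR adjusted p = 0.592). Chil3 had 8, 4 and 8.5 counts in Treg, against 9.5, 183.75 and 1235.58 in control. Resident macrophage markers summed to 66.1 to 68.1 CPM in Treg and 46.8 to 144 CPM in control. Their log2 fold changes were above 0 for 3 of the 6 and below 0 for 3, Cd163 (−1.01) and Lyve1 (−0.89) among them. Cx3cr1 had 248, 168 and 368.5 counts in Treg, against 236, 294 and 1 in control (log2 fold change 0.52, edgeR adjusted p = 0.813). In control replicate 3, where Cx3cr1 had 1 count, Cd163 and Lyve1 had their highest counts, 2462.5 and 1243.5. Timd4, a receptor for phosphatidylserine, had 12, 14 and 24 counts in Treg, against 0, 5 and 2 in control. It was the only 1 of the 6 with every Treg library above every control library, which held for 13.7% of all genes tested. It was also the only 1 with an unadjusted p under 0.05 (log2 fold change 2.75 ± 0.69, edgeR adjusted p = 0.175). By that limit 8.23% of all genes tested were higher in Treg. Neutrophil markers summed to 8.2 to 18.3 CPM in Treg and 6.81 to 36.8 CPM in control. Their part in the class II levels was not tested.

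**Figure D4:**
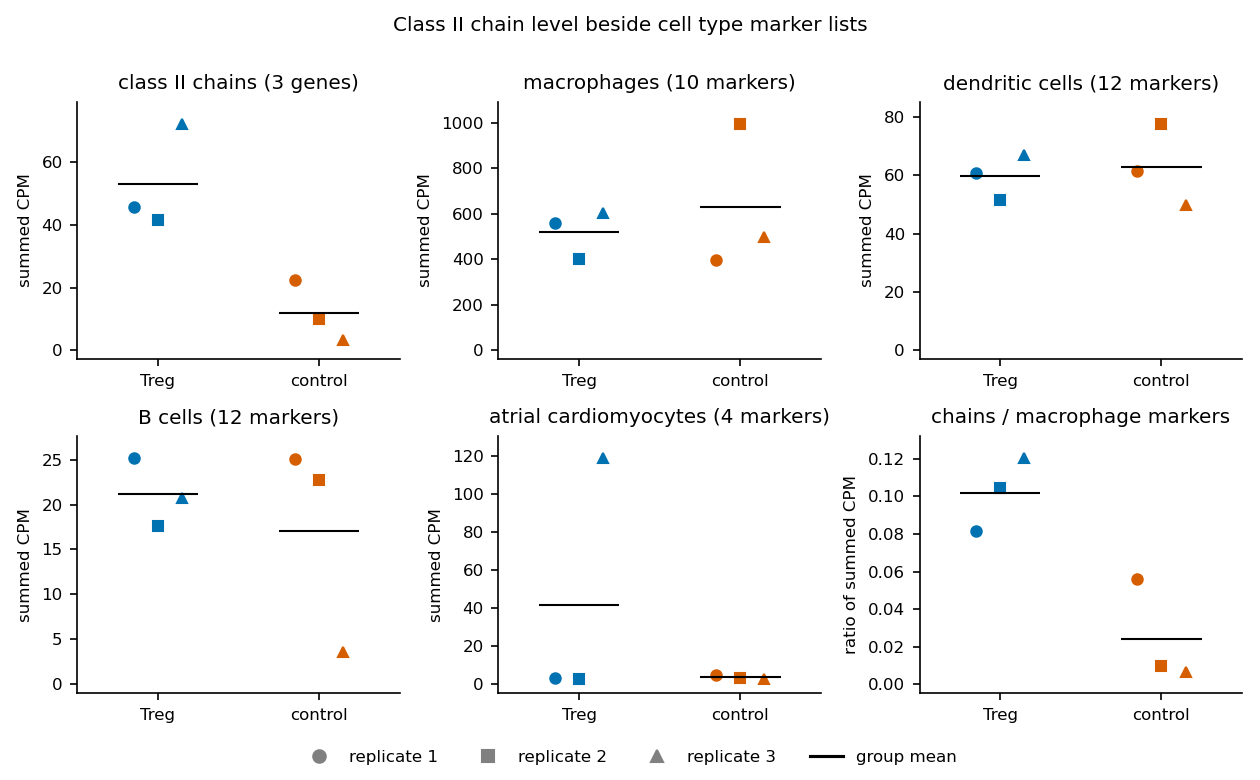
Summed CPM of the 3 class II chains and of 4 marker lists, and the ratio of the chains to the macrophage markers, with Treg left and control right; symbols are replicates 1 to 3 and the line is the group mean. The chains and their ratio to macrophage markers separate the groups, the macrophage, dendritic cell and B cell sums overlap, and the atrial marker sum is 119 CPM in Treg replicate 3 and 2.83 to 4.84 CPM in the other libraries.

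The wider class II pathway was read from a list of 32 further genes, of which 30 were tested, and as a whole it did not move with the chains. By edgeR 0 of the 30 passed the threshold. At an unadjusted p under 0.05, 3 were higher and 2 lower in Treg, close to the 16.5% of all genes past this limit. DESeq2 called 2 of the 30 as lower and 0 as higher, where it called 1.97% of all genes with an adjusted p as lower and 1.93% as higher. Every Treg library lay above every control library in 5 of the 30 and below in 2, against 13.7% and 11.7% of all genes. The list's median log2 fold change was −0.03.

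Upstream of Ciita, transcripts of interferon gamma itself were at 0 or 1 count in every library. Ifngr2, a chain of its receptor, averaged 120 ± 3.95 CPM in Treg and 73.3 ± 23.5 CPM in control (log2 fold change 0.72 ± 0.24, edgeR adjusted p = 0.238). Every Treg library lay above every control library and control replicate 3 was lowest. Irf8, a transcription factor of dendritic cells and macrophages, had −0.34 ± 0.21 (edgeR adjusted p = 0.433). Among the factors bound to the class II promoters, Rfxank, a subunit of the RFX complex, averaged 18.3 ± 2.2 CPM in Treg and 36.1 ± 8.21 CPM in control. Its log2 fold change was −0.98 ± 0.19 (edgeR adjusted p = 0.12), DESeq2 called it lower (adjusted p = 0.000994), and every Treg library lay below every control library. The partner subunit genes Rfx5 and Rfxap had −0.09 and 0.17, and the 3 NF-Y genes −0.04 to 0.25.

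Among the endosomal genes, Ctsl, cathepsin L, which trims the invariant chain in the thymic epithelium, averaged 190 ± 15.4 CPM in Treg and 333 ± 40.9 CPM in control. The log2 fold change was −0.81 ± 0.15 (edgeR adjusted p = 0.116), DESeq2 called it lower (adjusted p = 8.79e-05), and again the groups did not overlap. Lgmn, legumain, an endosomal protease, had −0.55 ± 0.29 (edgeR adjusted p = 0.382) with overlapping groups. Cd83, which protects surface class II from turnover, had 137, 91 and 164.67 counts in Treg, against 85, 103 and 19 in control (0.88 ± 0.53, edgeR adjusted p = 0.427). H2-Eb2 had 3 counts in Treg replicate 1 and 0 in the other libraries.

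**Figure D5:**
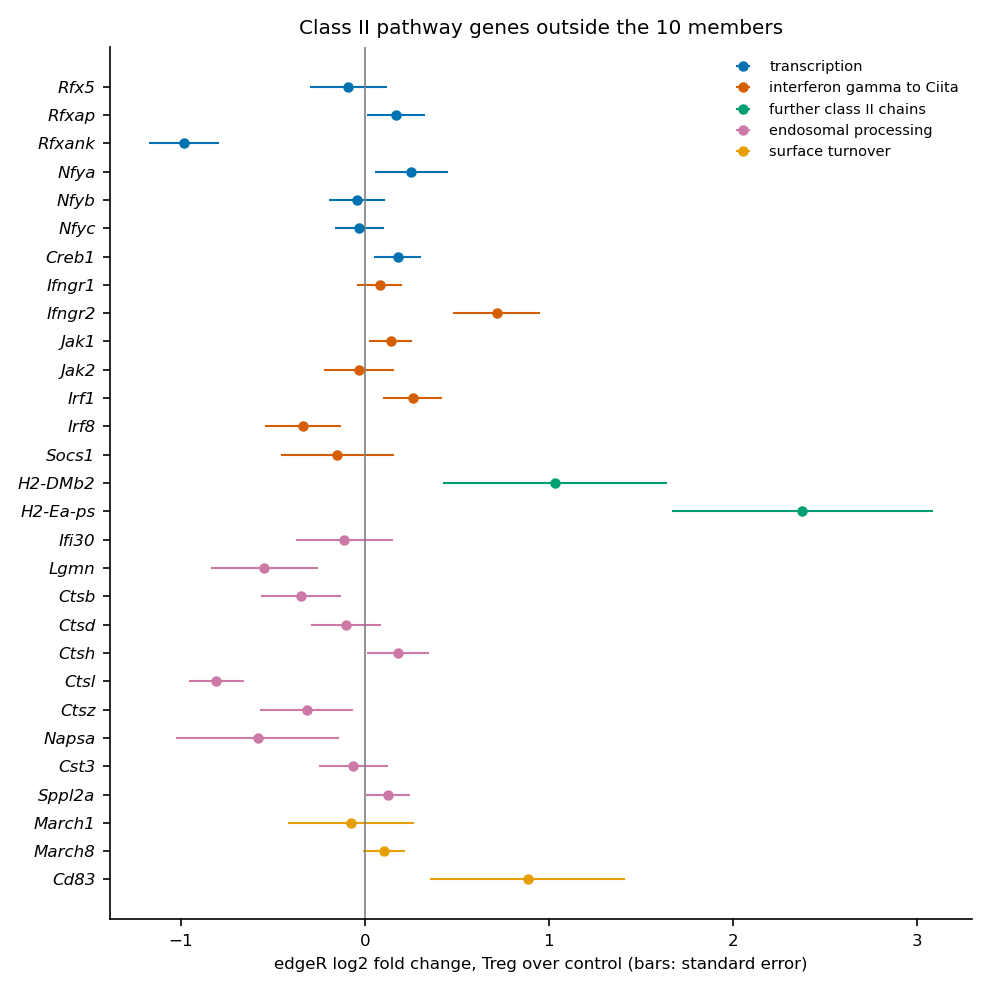
Log2 fold change of Treg over control with its standard error (edgeR, all 6 libraries) for tested class II pathway genes outside the 10 members (1 of the 30 is not drawn), coloured by role. H2-Ea-ps lies highest at 2.38, Rfxank (−0.98) and Ctsl (−0.81) lie lowest, and most others lie within 0.5 of 0.

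The genes whose level followed the chains and Cd74 most closely over the 6 libraries were found by the root mean square difference from their mean centred log2 profile, taken over the 14969 genes that averaged 1 CPM or more. This is a description of 6 libraries, in which control replicate 3 weighs most. The difference was 0.04 for H2-Aa, 0.21 for H2-Eb1, 0.27 for Cd74 and 0.48 for H2-Ab1. These genes make up the profile, so their closeness to it is partly built in. Among the other members it was 0.24 for H2-DMb1, 0.47 for Ciita, 1.60 for H2-DMa and 2.14 for Ctss, and the median over all genes compared was 1.64. H2-Ab1 thus lay further from the profile than Ciita, which is not part of it. H2-Ea-ps had 0.24. The 8 closest other genes were Mir5107 (0.19), whose row lies within Cd74 and shares bases with it, Aqp8, a water channel (0.20), Npy4r, a pancreatic polypeptide receptor (0.43), Kcnv2, a potassium channel subunit (0.45), Armc2, an armadillo repeat gene (0.46), Cnga3, a cyclic nucleotide-gated channel (0.48), Shld1, a shieldin subunit (0.50), and Edn3, endothelin 3 (0.50). Armc2 had 59.4, 58.7 and 53.8 CPM in Treg, against 22.2, 13.8 and 5.32 CPM in control. Aqp8 had 56, 72 and 117 counts in Treg, against 27, 11 and 2 in control.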

How the data were processed

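The authors deposited estimated counts per Ensembl gene ID, not normalized; 46.5% to 50.0% of values above 0 are fractional. Tools named in the submitters' processing notes, per the labels, are featureCounts 2.0.6, Cuffdiff 2.2.1, HISAT2 2.1.0 and Trimmomatic 0.39, with the build GRCm38. The sources used here do not give their roles, the strand setting or the annotation release. The kit was a stranded mRNA kit with paired 101 bp reads, per the labels' protocols. The table's other 6 value columns match no sample here and were not used. Symbols and positions come from GENCODE M21 (47224 IDs matched, 505 did not).

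Counts were rounded to whole numbers (0.5 upward). Treg was tested against control with edgeR 4.0.16 (R 4.3.3; filterByExpr, TMM, robust quasi-likelihood F test, two-sided, no covariates, Benjamini-Hochberg over 17365 genes, threshold 0.05), with DESeq2 1.42.0 and limma 3.58.1 (voom) as alternatives. SE is the fold change over the square root of F. The fits were tested on simulated counts. The design assumed whole or estimated counts, so no test changed. No library was a copy of another (chi-square per degree of freedom at least 17.7). The members and all gene lists were chosen with earlier results of these data known. Named by rule were all members, H2-DMb2, H2-Eb2, the 8 other pathway genes with the smallest p, up to 3 defining markers a list, and the 8 genes most alike. Other markers named (Lyz2, Cd68, Mertk, Itgam, Cd209a, Clec10a, Fscn1, Blk, Ighm, Foxp3, Cd4, Cd3g, Ace, Ccr2, Chil3, Timd4, Cd163, Lyve1, Cx3cr1), Dexi, Brd2, Rfx5, Rfxap and the NF-Y genes were chosen after their values were seen. Single values of 1 pathway gene and 1 marker that the rule names are not reported here, though both stay in the fits, counts and sums.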

Additional observations from a re-analysis of the deposited data

How the results depend on the processing

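Over all genes, edgeR called 0 with all libraries, 38 with no filter on low counts, 82 at an adjusted p under 0.1, and between 0 and 230 when each library was left out in turn, the 230 without control replicate 3. DESeq2 called 650 genes, and edgeR 119 without replicate 3 of both groups, an alternative chosen after seeing the data, as was edgeR's newer dispersion method (0). DESeq2 called 1 member and 2 related genes where edgeR called 0 of either; every other alternative, an adjusted p under 0.1 included, called 0. The median log2 fold change of the tested members was 1.98 to 2.46 under other tools, scalings and filters (10 members with no filter), 1.57 to 2.84 when each library was left out, and 1.26 without replicate 3 of both groups. The labels do not state whether replicate numbers pair the libraries. Correlations of same-numbered deviations were −0.142, −0.236 and 0.042, and those of other pairs ranged from −0.237 to 0.309. With 3 libraries a group these values cannot settle whether the libraries are paired. With the replicate block edgeR called 0 genes and the median over the tested members was 2.17. Of 128 values of single members under the alternatives, 127 kept their direction and side of the threshold, and 1 newly passed (H2-Ab1, DESeq2). At 28937253 to 29979080 counts a library, H2-Oa, H2-Ob, H2-Eb2 and interferon gamma were too low to compare.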
